A study of Mus musculus with 11 samples.

Results

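The genes examined were 10 chemokines and chemokine receptors that direct monocytes and macrophages, chosen by name: the ligands *Ccl2*, *Ccl7*, *Ccl8*, *Ccl12*, *Ccl6*, *Ccl9* and *Cx3cl1* and the receptors *Ccr1*, *Ccr2* and *Cx3cr1*. All 10 were present among the 19058 genes of the deposited table, and all 10 were among the 13937 genes tested against WT. They were measured by bulk RNA sequencing of whole lacrimal glands, the glands that make the watery part of tears, from male mice of the NOD strain, which spontaneously develop autoimmune inflammation of this tissue.

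The glands came from 3 wild-type (WT) mice, 5 *Tlr7* knockout (KO) mice and 3 *Ifnar1* KO mice, with 1 library per mouse. TLR7 is an endosomal sensor of single-stranded RNA, and *Ifnar1* encodes a subunit of the type I interferon (IFN) receptor. Per the study's methods, the *Tlr7* KO allele was a small CRISPR/Cas9 deletion made in NOD embryos, backcrossed and bred to homozygosity, and the *Ifnar1* KO mice carried the em16 allele on NOD. The WT and *Tlr7* KO mice were 20 to 22 weeks old, and the age of the *Ifnar1* KO mice is not given in the sources used here. The authors left out a further *Ifnar1* KO sample because its expression and gland inflammation resembled WT, so the remaining *Ifnar1* KO group was chosen in part on gland inflammation. The same 3 WT libraries served both knockout comparisons, which are therefore not independent.

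Inflammatory monocytes leave the bone marrow largely through CCR2, whose mouse ligands include the monocyte chemoattractant proteins CCL2, CCL7 and CCL12. CCL8 belongs to the same family and in the mouse acts strongly on CCR8. CCL6 and CCL9 are rodent chemokines made largely by myeloid cells and other tissue cells, and CCR1 is the receptor best known for binding them. CX3CL1, or fractalkine, is a membrane-anchored chemokine of epithelium and endothelium, and its receptor CX3CR1 marks patrolling monocytes and many tissue macrophages.

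The ligand genes lie in chemokine clusters (GRCm38, GENCODE release M21). *Ccl2* (chr11:82035571-82037453), *Ccl7* (chr11:82045712-82047525), *Ccl12* (chr11:82101845-82103400) and *Ccl8* (chr11:82115185-82116799) lie on the plus strand within 81229 bases, with *Ccl11* as the other protein-coding gene between their ends. *Ccl9* (chr11:83572919-83578636) and *Ccl6* (chr11:83587882-83593087) are neighbours on the minus strand and together span 20169 bases. The 3 receptor genes are on chromosome 9, with *Ccr1* at chr9:123962124-123968692 and *Ccr2* at chr9:124101950-124113557, and *Cx3cr1* at chr9:119901616-120069879. *Cx3cl1* is at chr8:94772009-94782427. Sequences upstream of the start were matched in RefSeq (GRCm38.p6) for 8 of the 10 genes, all but *Ccl2* and *Ccl7*. Shown are the 250 bases before the start of the 3 genes that were lower in both knockouts, *Ccl8*, *Ccl9* and *Ccr1*, and of *Ccl12*, the neighbour of *Ccl8*. They are written 5′ to 3′ on the gene's strand, and capitals mark matches to TATAAA or to the NF-κB consensus on either strand.
Ccl8, chr11:82114935-82115184, plus strand: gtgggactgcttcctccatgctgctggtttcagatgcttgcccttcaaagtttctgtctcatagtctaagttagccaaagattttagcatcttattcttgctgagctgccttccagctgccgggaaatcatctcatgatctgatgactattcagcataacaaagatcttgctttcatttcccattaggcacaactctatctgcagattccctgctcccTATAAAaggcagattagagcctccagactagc
Ccl12, chr11:82101595-82101844, plus strand: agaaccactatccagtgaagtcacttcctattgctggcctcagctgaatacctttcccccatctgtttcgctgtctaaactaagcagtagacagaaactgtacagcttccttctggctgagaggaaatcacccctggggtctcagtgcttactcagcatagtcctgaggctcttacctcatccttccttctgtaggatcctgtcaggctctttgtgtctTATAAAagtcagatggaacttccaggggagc
Ccl9, chr11:83578637-83578886, minus strand: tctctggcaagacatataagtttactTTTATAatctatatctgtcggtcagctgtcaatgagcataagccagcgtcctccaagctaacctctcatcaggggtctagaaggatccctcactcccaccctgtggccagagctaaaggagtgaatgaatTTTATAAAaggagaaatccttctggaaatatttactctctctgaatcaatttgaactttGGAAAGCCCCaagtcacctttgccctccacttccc
Ccr1, chr9:123968693-123968942, minus strand: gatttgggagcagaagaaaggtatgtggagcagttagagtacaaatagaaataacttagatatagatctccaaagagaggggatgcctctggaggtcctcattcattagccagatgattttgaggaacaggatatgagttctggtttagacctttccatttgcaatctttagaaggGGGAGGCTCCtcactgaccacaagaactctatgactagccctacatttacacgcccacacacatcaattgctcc

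Windows of 300 bases (250 before and 50 after the start) were searched on both strands for the interferon-stimulated response element, TTCNNNGAA (the STAT site GAS), the NF-κB consensus and GAGGAAGT (the core of the myeloid factor PU.1), and, after the sequences had been seen, for TATAAA. The NF-κB consensus was matched in *Ccl9*, from -35 to -26 on the minus strand, and in *Ccr1*, from -74 to -65 on the plus strand, and it was present in 8.46% of all 32807 windows. TATAAA lay at -32 to -27 in *Ccl8* and at -31 to -26 in *Ccl12*, the usual place of a TATA box. It was also found in *Ccl9*, where 2 matches overlap between -94 and -87 and another lies at -224 to -219, and in *Cx3cl1* at -6 to -1. TATAAA was present in 13.6% of all windows. The 8 windows held no match to the interferon-stimulated response element, GAS or PU.1 letters, which were present in 3.43%, 8.29% and 3.20% of all windows. A match is a description of letters, and no binding was measured here.

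The libraries had 20512315 to 28814250 estimated counts assigned to genes. Levels are given as CPM, the usual scaling of counts to library size, with trimmed mean of M values (TMM) factors, as mean ± SD over mice. Log2 fold changes (log2FC) are given with a standard error (SE) derived from the log2FC and the F statistic of its test. A gene was called changed at an adjusted p under 0.05, every adjusted p being the Benjamini-Hochberg value over all genes tested from the quasi-likelihood test of edgeR. *Tlr7* itself was at 2.39 ± 0.763 CPM in WT (n = 3) against 0.778 ± 0.176 CPM in *Tlr7* KO (n = 5). *Ifnar1* averaged 13.5 ± 2.63 CPM for WT against 9.02 ± 0.648 CPM for *Ifnar1* KO (n = 3), with transcript of each still present in its knockout. *Tlr7* was also low in *Ifnar1* KO (0.562 ± 0.289 CPM), and *Ifnar1* in *Tlr7* KO (9.56 ± 1.08 CPM). Some libraries stood apart. WT 2 was low in immune transcripts and correlated with the *Tlr7* KO libraries (mean r = 0.961) as well as with the other WT libraries (mean r = 0.955). Markers of salivary gland summed to 2457 CPM in WT 3, 2105 CPM in *Ifnar1* KO 2 and 178 CPM in *Ifnar1* KO 1, and to 3.22 CPM or less elsewhere. Markers of skeletal muscle summed to 351 CPM in WT 1, 253 CPM in WT 2, 248 CPM in *Tlr7* KO 4 and 9.87 CPM in *Ifnar1* KO 2, and to under 1 CPM elsewhere. Results without single libraries are therefore also given, mainly where a call or a value changed. Lacrimal and gland epithelium markers (8 genes) summed to 1051 to 1284 CPM in WT, below every *Tlr7* KO library (1536 to 1597 CPM) and every *Ifnar1* KO library (1542 to 1747 CPM). Of the 8, 4 were called higher and 1 lower in *Tlr7* KO, and 2 higher and 1 lower in *Ifnar1* KO. Their part in the chemokine values was not tested.

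*Ccl8* and *Ccl9* had the highest levels of the 10 genes. Per kilobase of annotated exon, the levels in WT were ordered *Ccl8* (101 ± 38.8 CPM per kb), *Ccl9* (28.8 ± 14.3), *Ccl6* (4.85 ± 1.59), *Cx3cl1* (3.39 ± 0.966), *Ccl12* (2.82 ± 1.56), *Cx3cr1* (1.32 ± 0.687), *Ccr2* (0.859 ± 0.608), *Ccl7* (0.642 ± 0.429), *Ccr1* (0.543 ± 0.186) and *Ccl2* (0.353 ± 0.288). The steps from *Ccl8* to *Ccl9* and from *Ccl9* to *Ccl6* exceeded both SDs, and each later step was smaller than the larger of the 2 SDs. *Ccl8* kept the first place in *Tlr7* KO (43.2 ± 16.9 CPM per kb) and in *Ifnar1* KO (20.6 ± 16.4), where its SD reached the level of *Ccl9* (8.18 ± 2.14). Of the summed counts of *Ccl2*, *Ccl7*, *Ccl8* and *Ccl12*, *Ccl8* made up 92.3% to 98.0% in each of the 11 libraries. *Ccl2* had no more than 25 counts in any library.

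**Figure D1:**
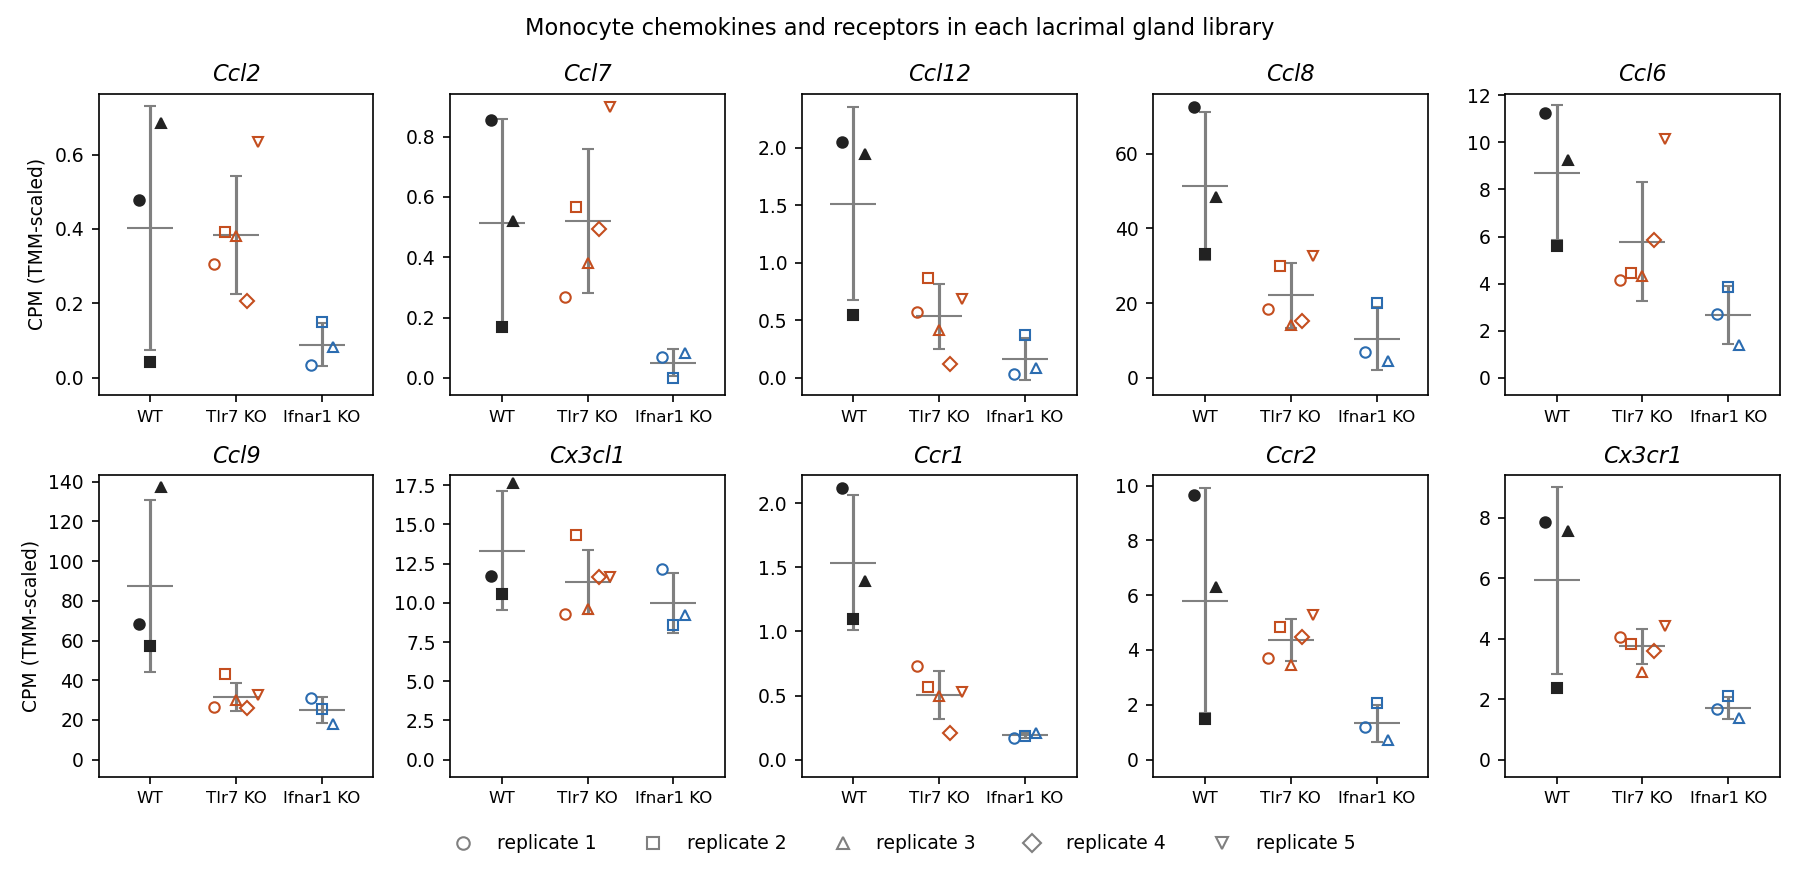
CPM (linear axes, 1 panel per gene) of the 10 genes in each library, with the marker shape giving the replicate number, the horizontal bar the group mean and the vertical bar 1 SD. The *Ifnar1* KO libraries lie below all WT libraries for *Ccl7*, *Ccl12*, *Ccl8*, *Ccl6*, *Ccl9*, *Ccr1* and *Cx3cr1*, and the *Tlr7* KO libraries do so for *Ccl8*, *Ccl9* and *Ccr1*.

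*Ccl8* was lower in both knockouts. It was at 72.6, 33.3 and 48.4 CPM in WT 1 to 3, at 18.4, 29.9, 14.2, 15.2 and 32.6 CPM in *Tlr7* KO 1 to 5 and at 6.84, 20.1 and 4.57 CPM in *Ifnar1* KO 1 to 3. All WT libraries lay above all knockout libraries, although WT 2 exceeded *Tlr7* KO 5 only narrowly, and *Ifnar1* KO 2 was the highest of its group and lay within the range of *Tlr7* KO. The level fell 2.34-fold in *Tlr7* KO (log2FC -1.23, SE 0.322, adjusted p = 0.0183) and 5.0-fold in *Ifnar1* KO (log2FC -2.32, SE 0.551, adjusted p = 0.0312). The difference between the knockouts was not called (log2FC -1.06 for *Ifnar1* KO against *Tlr7* KO, SE 0.456, adjusted p = 0.288), but without *Ifnar1* KO 2 the difference was -1.94 (adjusted p = 0.0181). Leaving out WT 2 gave a log2FC of -1.46 for *Tlr7* KO (adjusted p = 0.00512), and of -2.56 for *Ifnar1* KO (adjusted p = 0.0176). The call in *Tlr7* KO was lost without WT 1 (log2FC -0.90, adjusted p = 0.0848). The call in *Ifnar1* KO was lost when WT 1 (-1.99) or WT 3 (-2.36) was left out, and when replicate 1 (-2.06) or 3 (-1.97) of *Ifnar1* KO was, with adjusted p of 0.0787 to 0.110. Without *Ifnar1* KO 2 the value was -3.19 (adjusted p = 0.0287).

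*Ccl12*, a mouse ligand of CCR2, was called lower in *Ifnar1* KO. It was at 2.05, 0.548 and 1.94 CPM in WT, at 0.574, 0.870, 0.418, 0.124 and 0.687 CPM in *Tlr7* KO and at 0.0340, 0.374 and 0.0838 CPM in *Ifnar1* KO. WT 1 and WT 3 stood well above all knockout libraries, and WT 2 lay within the *Tlr7* KO range. The level fell 9.32-fold in *Ifnar1* KO (log2FC -3.22, SE 0.814, adjusted p = 0.0363), where it rested on 1 to 10 counts per library. In *Tlr7* KO the log2FC of -1.53 (SE 0.536) missed the threshold (adjusted p = 0.0539) and passed it without WT 2 (-1.91, adjusted p = 0.00805) or without *Tlr7* KO 2 (-1.78, adjusted p = 0.0448). Of 9 settings that kept all libraries, 3 also passed. These were DESeq2 (-1.52, adjusted p = 0.0367), the second deposited table (-1.74, adjusted p = 0.0284) and scaling by library size only (-2.16, adjusted p = 0.0172). The call in *Ifnar1* KO was lost when WT 1, WT 3 or either of *Ifnar1* KO 1 and 3 was left out (log2FC -2.69 to -2.99, adjusted p = 0.103 to 0.122), and was kept without WT 2 (-3.61, adjusted p = 0.0104) or *Ifnar1* KO 2 (adjusted p = 0.0331, with the remaining *Ifnar1* KO libraries under the floor of 3 counts).

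*Ccl7*, a ligand of CCR2 and other receptors, was near or at 0 in *Ifnar1* KO. It was at 0.855, 0.169 and 0.519 CPM in WT, at 0.268, 0.565, 0.380, 0.494 and 0.898 CPM in *Tlr7* KO, and at 0.0681, 0 and 0.0838 CPM in *Ifnar1* KO. The *Ifnar1* KO libraries held 2, 0 and 2 counts and did not overlap with the other groups, while the WT and *Tlr7* KO libraries covered nearly the same range. With the floor set at 3 counts per library, the level was at least 4.54-fold lower in *Ifnar1* KO than in WT (adjusted p = 0.0461) and at least 4.60-fold lower than in *Tlr7* KO (adjusted p = 0.0479). In *Tlr7* KO the log2FC against WT was -0.03 (SE 0.518, adjusted p = 0.970). Both calls were near the threshold. Against WT the call was kept only when WT 2 was left out (adjusted p = 0.0140), and was lost without any other library (adjusted p = 0.0972 to 0.152). Against *Tlr7* KO it was kept only without *Ifnar1* KO 2 (adjusted p = 0.0438), and was lost without any other library (adjusted p = 0.0704 to 0.137), in a joint fit of all 11 libraries (adjusted p = 0.0959) and in the second deposited table (adjusted p = 0.0751). Scaling by library size only ended the call against WT (adjusted p = 0.051).

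*Ccl2*, the main ligand of CCR2, was not called in any comparison. It was at 0.479, 0.0422 and 0.683 CPM in WT, at 0.306, 0.391, 0.380, 0.206 and 0.634 CPM in *Tlr7* KO and at 0.0340, 0.149 and 0.0838 CPM in *Ifnar1* KO. WT 2 held 1 count, as did *Ifnar1* KO 1, and the other WT libraries lay within or just above the *Tlr7* KO range. All *Ifnar1* KO libraries lay below all *Tlr7* KO libraries (log2FC -2.04, SE 0.575, adjusted p = 0.115). The log2FC against WT was -0.14 in *Tlr7* KO (SE 0.621, adjusted p = 0.875) and -2.21 in *Ifnar1* KO (SE 0.954, adjusted p = 0.136), and the latter passed the threshold without WT 2 (-2.70, adjusted p = 0.0183). With WT 3 left out, the *Tlr7* KO value was 0.47 (adjusted p = 0.681) and the *Ifnar1* KO value -1.59 (adjusted p = 0.387).

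*Ccl9* was lower in both knockouts, and its call in *Tlr7* KO did not depend on any 1 library. It was at 68.4, 57.1 and 137 CPM in WT, at 26.3, 43.2, 30.2, 26.1 and 32.7 CPM in *Tlr7* KO and at 31.1, 25.6 and 18.1 CPM in *Ifnar1* KO. WT 3, a library with salivary markers, was the highest, and every WT library lay above every knockout library. The level fell 2.78-fold in *Tlr7* KO (log2FC -1.47, SE 0.275, adjusted p = 0.00499) and 3.59-fold in *Ifnar1* KO (log2FC -1.84, SE 0.358, adjusted p = 0.0235). The knockouts overlapped (log2FC -0.35, SE 0.195, adjusted p = 0.407). With each library left out in turn, the call in *Tlr7* KO was kept 8 of 8 times, and the log2FC without WT 3 was -0.99 (adjusted p = 0.0126). In *Ifnar1* KO the call was lost without WT 3 (-1.35, adjusted p = 0.0552), WT 1 (-1.99), or replicate 1 (-2.01) or 3 (-1.67) of *Ifnar1* KO, with adjusted p of 0.0552 to 0.0855, and was kept without WT 2 (-2.08, adjusted p = 0.00683).

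*Ccl6*, its neighbour on the chromosome, was called lower in *Ifnar1* KO alone. It was at 11.3, 5.61 and 9.24 CPM in WT, at 4.13, 4.44, 4.33, 5.85 and 10.1 CPM in *Tlr7* KO and at 2.72, 3.85 and 1.38 CPM in *Ifnar1* KO. *Tlr7* KO 5 lay at the WT level, apart from the other *Tlr7* KO libraries, and the *Ifnar1* KO libraries lay below all others. The level fell 3.34-fold in *Ifnar1* KO (log2FC -1.74, SE 0.390, adjusted p = 0.0275). In *Tlr7* KO the log2FC was -0.61 (SE 0.320, adjusted p = 0.171), and it was -0.90 without *Tlr7* KO 5 (adjusted p = 0.0265) and -0.84 without WT 2 (adjusted p = 0.0516). Between the knockouts it was -1.11 (SE 0.371, adjusted p = 0.178). Leaving out WT 1 (-1.51), WT 3 (-1.69), or replicate 1 (-1.73) or 3 (-1.45) of *Ifnar1* KO ended the call in *Ifnar1* KO, with adjusted p of 0.0810 to 0.0957.

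*Cx3cl1* was not called in any comparison. It was at 11.7, 10.6 and 17.7 CPM in WT, at 9.30, 14.4, 9.61, 11.7 and 11.7 CPM in *Tlr7* KO and at 12.2, 8.60 and 9.21 CPM in *Ifnar1* KO. The groups overlapped in every comparison, with WT 3 the highest library. The log2FC was -0.25 in *Tlr7* KO (SE 0.191, adjusted p = 0.349), -0.44 in *Ifnar1* KO (SE 0.230, adjusted p = 0.203) and -0.18 between the knockouts (SE 0.160, adjusted p = 0.614; 0.025 when scaled by library size only). Without WT 3 the log2FC in *Tlr7* KO was 0.017 and in *Ifnar1* KO -0.18.

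*Cx3cr1* was called lower in *Ifnar1* KO against both other groups. It was at 7.87, 2.36 and 7.57 CPM in WT, at 4.06, 3.83, 2.89, 3.58 and 4.44 CPM in *Tlr7* KO and at 1.67, 2.09 and 1.38 CPM in *Ifnar1* KO. The *Ifnar1* KO libraries lay below all others, whereas WT 2 lay below every *Tlr7* KO library. The level fell 3.53-fold in *Ifnar1* KO against WT (log2FC -1.82, SE 0.450, adjusted p = 0.0343) and 2.19-fold against *Tlr7* KO (log2FC -1.13, SE 0.193, adjusted p = 0.0235). In *Tlr7* KO against WT the log2FC was -0.67 (SE 0.330, adjusted p = 0.142), and it passed the threshold without WT 2 (-1.05, adjusted p = 0.000767). Against WT, the call in *Ifnar1* KO was kept without WT 2 (-2.20, adjusted p = 0.00270) and lost without any other library (-1.57 to -1.98, adjusted p = 0.0641 to 0.118). Against *Tlr7* KO it was lost without *Tlr7* KO 1, 4 or 5 or *Ifnar1* KO 1 or 3 (-1.0 to -1.14, adjusted p = 0.0510 to 0.0862), in the joint fit (-1.12, adjusted p = 0.194) and with scaling by library size only (-0.92, adjusted p = 0.0696).

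*Ccr2*, the receptor of inflammatory monocytes, was high in 2 WT libraries and intermediate in *Tlr7* KO. It was at 9.65, 1.48 and 6.29 CPM in WT, at 3.71, 4.83, 3.46, 4.49 and 5.28 CPM in *Tlr7* KO and at 1.19, 2.06 and 0.712 CPM in *Ifnar1* KO. WT 2 lay within the *Ifnar1* KO range, and all *Ifnar1* KO libraries lay below all *Tlr7* KO libraries. The level fell 3.27-fold in *Ifnar1* KO against *Tlr7* KO (log2FC -1.71, SE 0.296, adjusted p = 0.0258). Against WT the log2FC was -2.16 in *Ifnar1* KO (SE 0.666, adjusted p = 0.0591) and -0.43 in *Tlr7* KO (SE 0.438, adjusted p = 0.475). With WT 2 left out the *Ifnar1* KO value was -2.61 (adjusted p = 0.00656) and the *Tlr7* KO value -0.88 (adjusted p = 0.00712). The latter was 0.13 with WT 1 left out. The *Ifnar1* KO value against WT also passed the threshold in a joint fit of all 11 libraries (adjusted p = 0.0105) and by DESeq2 (adjusted p = 0.00549). The call between the knockouts was lost without *Tlr7* KO 1, 4 or 5 or *Ifnar1* KO 1 or 3 (-1.43 to -1.78, adjusted p = 0.0519 to 0.0977), and in the joint fit (-1.71, adjusted p = 0.181).

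*Ccr1*, the receptor for CCL6 and CCL9, was lower in both knockouts. It was at 2.12, 1.10 and 1.39 CPM in WT, at 0.727, 0.565, 0.494, 0.206 and 0.528 CPM in *Tlr7* KO and at 0.170, 0.187 and 0.209 CPM in *Ifnar1* KO. The WT libraries held 26 to 62 counts and each *Ifnar1* KO library held 5, and neither knockout overlapped with WT. The level fell 3.04-fold in *Tlr7* KO (log2FC -1.60, SE 0.364, adjusted p = 0.0104) and 8.15-fold in *Ifnar1* KO (log2FC -3.03, SE 0.406, adjusted p = 0.0207). The knockouts overlapped in 1 library, *Tlr7* KO 4 (log2FC -1.40, SE 0.447, adjusted p = 0.157). Leaving out WT 2 gave -1.79 (adjusted p = 0.00434) for *Tlr7* KO, and -3.22 (adjusted p = 0.00345) for *Ifnar1* KO. With WT 1 left out, *Tlr7* KO missed the threshold (-1.31, adjusted p = 0.0543), and so did *Ifnar1* KO (-2.72, adjusted p = 0.0592), also without *Ifnar1* KO 1 (-2.93, adjusted p = 0.0708) or *Ifnar1* KO 3 (-3.12, adjusted p = 0.0799).

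**Figure D2:**
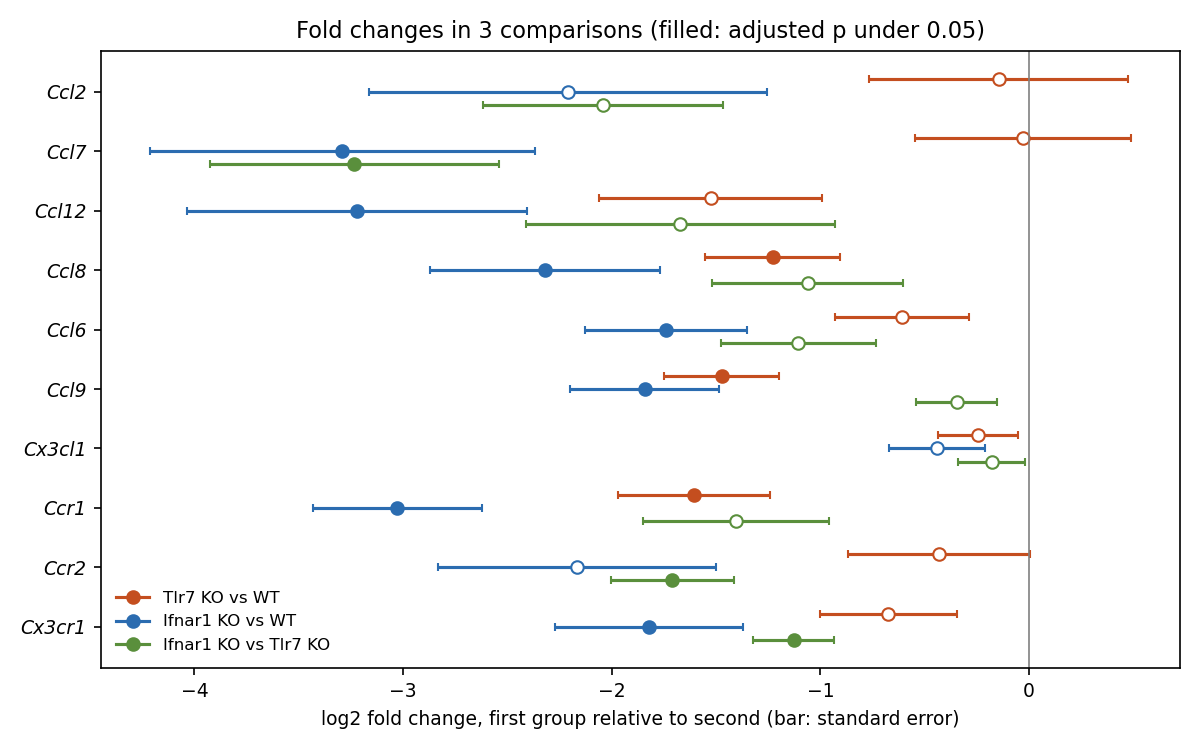
Log2 fold changes (x axis, points with SE bars) of the 10 genes (y axis) for *Tlr7* KO against WT, *Ifnar1* KO against WT and *Ifnar1* KO against *Tlr7* KO, with filled points at an adjusted p under 0.05. *Ccl8*, *Ccl9* and *Ccr1* are filled in both WT comparisons, *Ccl7*, *Ccr2* and *Cx3cr1* between the knockouts, and *Cx3cl1* in none. The fitted value of *Ccl7* in *Ifnar1* KO depends on the prior count of the fit, and the change is given in the text as a bound.

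Counted over the genes, 3 of the 10 were lower in *Tlr7* KO than in WT and none higher. Of all genes tested, 17.4% were called lower in *Tlr7* KO. The same 3 genes, *Ccl8*, *Ccl9* and *Ccr1*, were those with no overlap between groups, against 14.2% of all genes in that direction. The median log2FC of the 10 genes was -0.64, and that of all genes tested -0.04. *Ifnar1* KO mice had 7 of the 10 called lower against WT and none higher, beside 12.4% of all genes called lower. These 7 also did not overlap with WT, against 21.1% of all genes. The median log2FC was -2.19 (-2.17 with *Ccl7* at its bound), and that of all genes -0.02. Between the knockouts, 3 of the 10 were lower in *Ifnar1* KO, against 0.926% of all genes, and 5 did not overlap (*Ccl2*, *Ccl7*, *Ccl6*, *Ccr2* and *Cx3cr1*), against 5.47%. The median log2FC was -1.27, and that of all genes was 0.00 to 2 decimals. Both comparisons with WT share their WT libraries.

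Which library was left out changed these counts. Without WT 2, 6 of the 10 genes were called lower in *Tlr7* KO and 9 in *Ifnar1* KO, the exception in the latter being *Cx3cl1*, while the calls over all genes rose to 6664 and 4666. Without WT 1 the counts were 1 (*Ccl9*) and 0, and without WT 3 they were 3 and 1 (*Ccr1*), with 2722 and 13, and 2602 and 121, of all genes. Leaving out *Ifnar1* KO 1, 2 or 3 gave 0, 5 and 0 genes against WT and 0, 4 and 0 against *Tlr7* KO, with 0, 1590 and 0 and 91, 877 and 92 of all genes. Leaving out *Tlr7* KO 1, 4 or 5 gave 0 between the knockouts, and leaving out *Tlr7* KO 2 or 3 gave 2, with 85 to 144 of all genes called. Where the count against WT was 0, the edgeR fit gave 7 or 8 of the 10 genes an unadjusted p under 0.05. It did so for 3778 to 4383 of all genes. Where the count between the knockouts was 0, 5 to 8 of the 10 genes and 1787 to 1999 of all genes had an unadjusted p under 0.05. DESeq2 on all libraries called 4, 8 and 4 of the 10 genes in the 3 comparisons, beside 4599, 3356 and 577 of all genes. In the second table, edgeR called 4, 7 and 2 of the 10, beside 4010, 2507 and 225 of the 13050 genes tested there. The salivary markers of WT 3, *Ifnar1* KO 1 and *Ifnar1* KO 2 and the muscle markers of WT 1, WT 2 and *Tlr7* KO 4 were high in some of the libraries whose removal changed the counts, and their part in the result was not tested.

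**Figure D3:**
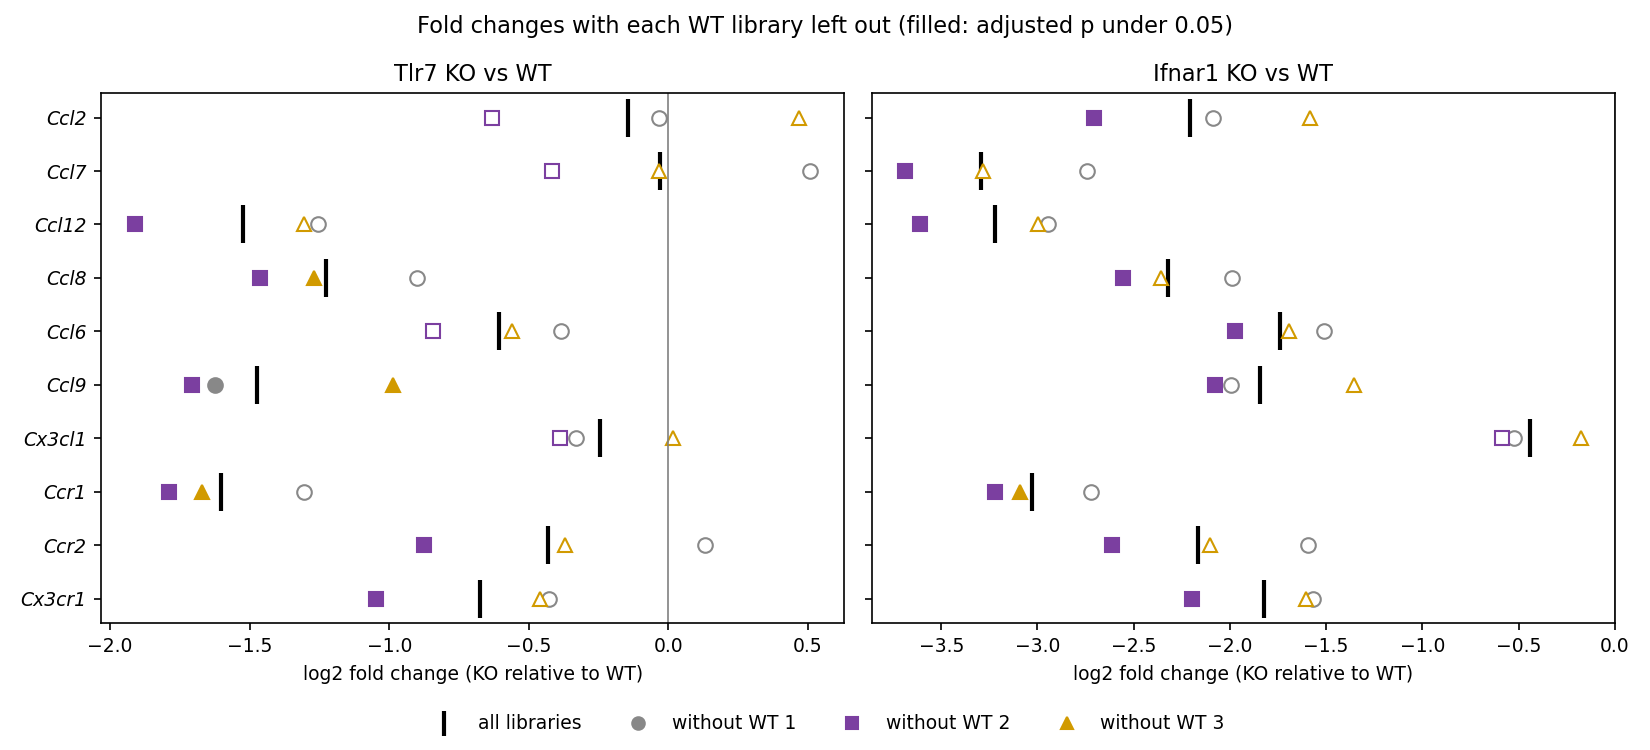
Log2 fold changes (x axes) of the 10 genes (y axis) in *Tlr7* KO (left) and *Ifnar1* KO (right) against WT with all libraries (black bars) and with WT 1, WT 2 or WT 3 left out (symbols, filled at an adjusted p under 0.05). Leaving out WT 2 gave the most negative value for every gene in both comparisons, and the *Ifnar1* KO values remained below 0 under each of these settings.

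Across the 11 libraries the 10 genes varied together to unequal degrees. Pearson's r of log2(CPM + 0.5) ranged from 0.417 (*Ccr1* with *Cx3cl1*) to 0.950 (*Ccr2* with *Cx3cr1*), as a description over libraries of 3 genotypes that share group differences. Among genes averaging 10 CPM or more, those most like *Ccl8* were *C1qc* (r = 0.988) and *C1qb* (r = 0.981), which encode chains of complement C1q and are also among the macrophage markers below. *Ccl7* was most like *Irf7* (0.862) and *Rnf31* (0.854), *Ccr2* like *Zgpat* (0.968) and *Stat2* (0.953), and *Cx3cr1* like *Cfb* (0.980) and *Zgpat* (0.952). *Irf7* and *Stat2* encode transcription factors of the IFN response, *Irf7* being also in the IFN list below, and *Cfb* complement factor B. *Ccl12* was most like *Arpc4* (0.978) and *Samhd1* (0.969), *Ccl6* like *Ifitm3* (0.930) and *Ehd4* (0.919), and *Ccr1* like *Clic1* (0.949) and *Ptms* (0.939). *Ccl9* was most like *Sftpd* (0.982), which encodes surfactant protein D, and *1600014C10Rik* (0.981). *Cx3cl1* was most like *Degs1* (0.852) and *1600014C10Rik* (0.798), and *Ccl2* like *Zgpat* (0.913) and *Coro1b* (0.845).

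Other chemokines and their receptors, which largely direct lymphocytes and granulocytes, were described for comparison. Of 50 genes listed, 46 were in the table and 35 were tested. In *Tlr7* KO, 16 were lower and 2 higher than in WT (median log2FC -0.95), the lower ones with the smallest adjusted p being *Cxcr4* (log2FC -3.21, SE 0.178, adjusted p = 3.38e-05), *Ccl20* (-3.36, SE 0.387) and *Cxcl13* (-2.91, SE 0.344), the attractant of B cells. The 2 higher were *Ccl28* (1.45, SE 0.109), a mucosal chemokine, and *Cxcl1* (1.85, SE 0.273), an attractant of neutrophils. In *Ifnar1* KO, 19 were lower and none higher (median -2.07), led by *Ccl20* (-3.59, SE 0.404), *Cxcl12* (-1.22, SE 0.137) and *Cxcl13* (-3.97, SE 0.478). Between the knockouts *Cxcl1* (-1.93, SE 0.277), *Ccl28* (-1.08, SE 0.176) and *Cxcl14* (-0.67, SE 0.111) were lower in *Ifnar1* KO, and the median was -0.74 (-0.67 with 2 genes at their bound). With each library left out in turn the number called ranged from 8 to 25 in *Tlr7* KO, from 0 to 26 in *Ifnar1* KO and from 0 to 7 between the knockouts. *Ccl11*, which lies between *Ccl7* and *Ccl12* and was looked at for its place, was at 3.72, 3.53 and 3.16 CPM in WT, *Tlr7* KO and *Ifnar1* KO on average, with adjusted p of 0.551 to 0.802 in the 3 comparisons.

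In bulk tissue, fewer cells of a type and less RNA per cell cannot be told apart. The 12 macrophage markers summed to 158 to 280 CPM in WT, 105 to 147 CPM in *Tlr7* KO and 51.8 to 105 CPM in *Ifnar1* KO, with none at 0 in any library. Of these, 4 were lower and 2 higher in *Tlr7* KO, and 5 were lower and 1 higher in *Ifnar1* KO. Between the knockouts 1 of the 12, *Trem2*, was called lower in *Ifnar1* KO (log2FC -1.35, adjusted p = 0.0287), 5 did not overlap, and the median log2FC was -0.85. The 8 markers of classical monocytes summed to 30 to 88.7, 24.8 to 48.6 and 23.6 to 27.9 CPM in the same order, with 3 of 7 tested lower in each knockout and *Chil3* at 0 in 5 libraries. The 6 markers of patrolling monocytes summed to 67.4 to 113, 95.4 to 125 and 69.8 to 93.7 CPM, a sum carried by *Ace* (72.5 CPM on average), with *Treml4* at 0 in 1 library and *Cd300e* in 2. Of the 4 tested, 1 was lower and 1 higher in *Tlr7* KO, and 2 were lower and 1 higher in *Ifnar1* KO (median log2FC -1.29). Neutrophil markers were near 0, with 3 of 6 in the table and a sum of at most 4.38 CPM.

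Most B, T and NK cell markers were lower in both knockouts. The 6 B cell markers summed to 71.3 to 250 CPM in WT, 5.24 to 43.4 CPM in *Tlr7* KO and 2.30 to 18.3 CPM in *Ifnar1* KO, with 6 of 6 lower in each knockout and *Ms4a1* and *Pax5* at 0 in 1 library each. The 8 T cell markers summed to 23.2 to 75.9, 5.55 to 29.5 and 1.30 to 13.5 CPM, with 6 of 8 lower in each knockout and *Cd8b1* and *Trac* at 0 in 1 library each. The 5 NK cell markers summed to 3.46 to 6.31, 1.69 to 2.90 and 0.251 to 1.12 CPM, with 3 of 5 lower in *Tlr7* KO, all 5 lower in *Ifnar1* KO, and *Ncr1* at 0 in 1 library and *Klrb1c* and *Klre1* in 2 each. The 5 endothelial markers summed to 14.4 to 25.7, 10.7 to 14.6 and 6.99 to 9.90 CPM, with 2 lower and 1 higher in *Tlr7* KO and 2 lower in *Ifnar1* KO. Between the knockouts, edgeR called no B, T, NK or endothelial marker, and 3 NK cell and 3 endothelial markers had an unadjusted p under 0.05. Of the 13935 genes tested there, 2270 had an unadjusted p under 0.05. WT 2 was the lowest WT library for B and T cell markers (71.3 and 23.2 CPM), as it was for all 10 chemokine and receptor genes. The 8 genes of the type I IFN response were at 22.8 to 83.7 CPM in WT, 35.7 to 91.0 CPM in *Tlr7* KO and 2.47 to 9.45 CPM in *Ifnar1* KO, with *Mx1* at 0 in 1 library. The lowest WT value was that of WT 2, with WT 1 at 83.7 CPM and WT 3 at 82.9 CPM. In *Tlr7* KO against WT the median log2FC of the 8 was -0.48, with 6 of 8 below 0. None of the 8 was called by edgeR in *Tlr7* KO, where 0 of 8 also had an unadjusted p under 0.05, and 8 of 8 were lower in *Ifnar1* KO than in WT and than in *Tlr7* KO. The part of these cell types and of the IFN response in the chemokine values was not tested.

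**Figure D4:**
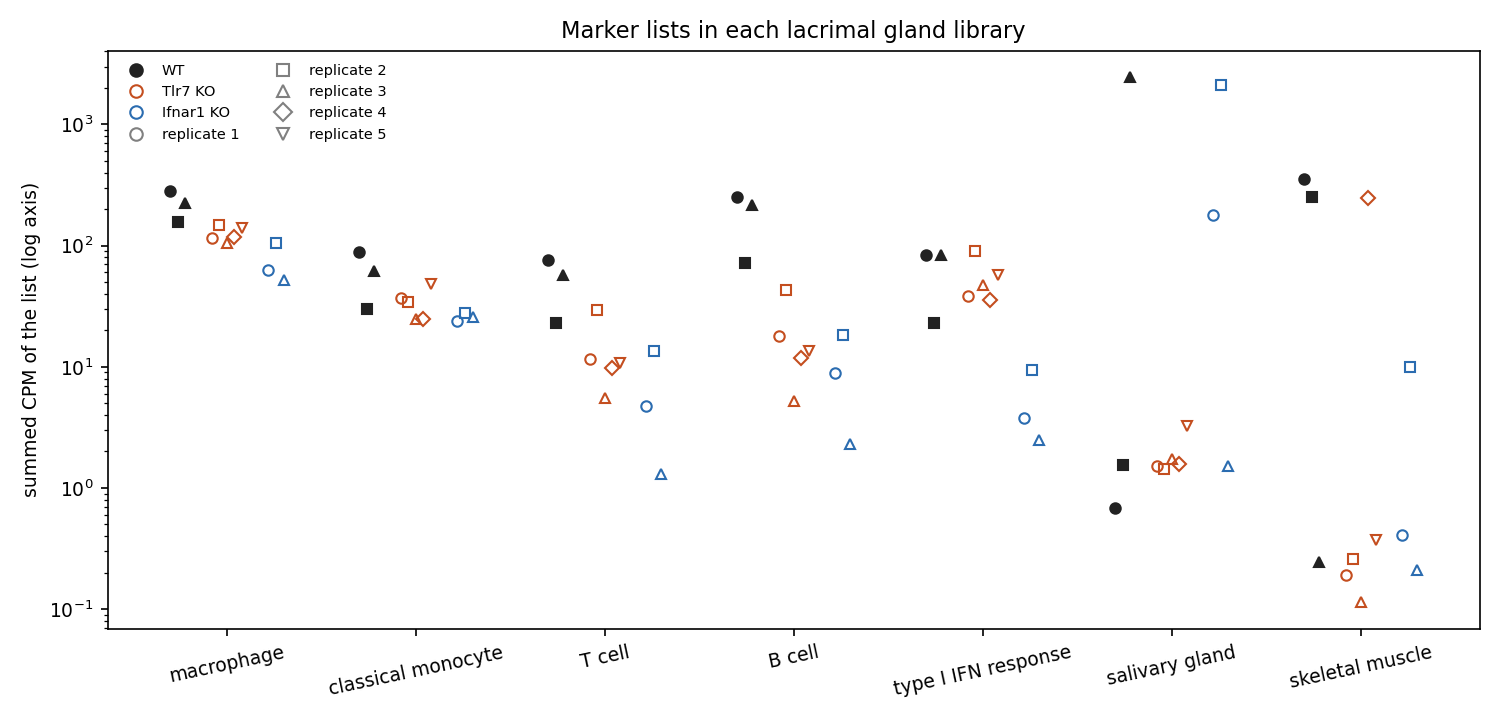
Summed CPM (log axis) of marker lists in each library, with color giving the group and marker shape the replicate number. The macrophage and B cell sums of every WT library lie above those of all knockout libraries, and the type I IFN response sums of *Ifnar1* KO (2.47 to 9.45 CPM) lie below those of all other libraries. Salivary gland markers are highest in WT 3, *Ifnar1* KO 2 and *Ifnar1* KO 1, and skeletal muscle markers in WT 1, WT 2 and *Tlr7* KO 4.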

How the data were processed

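Expression was measured by RNA-seq of 1 gland per mouse in 11 libraries. The authors estimated transcript abundance by salmon, took gene totals by tximport, and deposited rounded estimated counts for 19058 genes, each with a summed count of at least 6. These values were taken as not normalized, judged by the values and the study's methods, although their deposited name calls them normalized. A second deposited table holds counts for 39017 genes from a counter not given in the sources used here, and served as an alternative. The submitters' processing notes name HISAT2 2.1.0 and mm10. In the second table, 1 column of per-sample values matched no sample and was not used. Fold changes were tested by edgeR 4.0.16 (R 4.3.3), quasi-likelihood, with TMM scaling and a separate fit per pair of groups, over genes with a summed WT count of at least 30. The floor was 3 counts per library, covering counting error only. The fits were tested on simulated data. The 10 genes and all lists were chosen with earlier results of these data known. Named in the text are all 10 genes, *Tlr7* and *Ifnar1*, the 3 other chemokines or receptors with the smallest adjusted p per comparison and direction, and the 2 genes most like each of the 10 (mean of at least 10 CPM). *Ccl11* was added for its position. Alternatives were DESeq2 1.42.0, 2 other scalings, 2 other filters, the second table, a stricter threshold, 1 joint fit, a replicate block, each library left out and, added after seeing the data, robust dispersion estimates. Protein sequences were not used here.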

Additional observations from a re-analysis of the deposited data

Results flagged for a closer look

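*Ccl6* in *Tlr7* KO 5 was at 10.1 CPM, far from the other 4 *Tlr7* KO libraries (4.13 to 5.85 CPM) by Dixon's criterion, which chance meets in about 1 of 20 groups. The effects of the knockouts differed by edgeR's quasi-likelihood test of *Ifnar1* KO against *Tlr7* KO for 3 genes. None of the 3 was called in a joint fit of all 11 libraries (adjusted p = 0.0959 for *Ccl7*, 0.181 for *Ccr2* and 0.194 for *Cx3cr1*), and leaving out any of *Tlr7* KO 1, 4 and 5 and *Ifnar1* KO 1 and 3 also gave 0 calls among the 10 genes. DESeq2 called all 3 (adjusted p = 0.00939 for *Ccl7*, 2.41e-06 for *Ccr2* and 0.000146 for *Cx3cr1*). *Ccl7* had a fitted log2FC of -3.23, which depends on the prior count because the *Ifnar1* KO libraries held 0 to 2 counts. *Ccr2* had a log2FC of -1.71 and *Cx3cr1* of -1.13. All 5 *Tlr7* KO libraries lay above all 3 *Ifnar1* KO libraries for each of these 3 genes.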

How the results depend on the processing

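Of the 10 genes, edgeR's quasi-likelihood test called 3, 7 and 3 in *Tlr7* KO against WT, *Ifnar1* KO against WT and *Ifnar1* KO against *Tlr7* KO. At an adjusted p under 0.01 it called 1, 0 and 0 of them, 8, 0 and 0 of the other chemokines and receptors (18, 19 and 3 at 0.05) and 1970, 1 and 30 of all genes (4566, 2677 and 250 at 0.05). Scaling by library size only gave 6 of the 10 and 4397 of all genes in *Tlr7* KO, 1340 of all genes in *Ifnar1* KO and 1 other chemokine between the knockouts. It moved the median log2FC of all genes to -0.54, -0.31 and 0.19 and the share of lower among called genes from 53.2%, 64.8% and 51.6% to 97.2%, 96.2% and 30.6%, and turned *Cx3cl1* between the knockouts to 0.025. A fit of all 11 libraries called 5124 genes in *Ifnar1* KO and 93 between the knockouts, with 0 of the 10 in the latter (7 at an unadjusted p under 0.05, against 8 in the pairwise fit). Of all genes, 1767 had an unadjusted p under 0.05 between the knockouts in that fit, against 2270 in the pairwise fit. DESeq2 called 577 genes and 8 other chemokines between the knockouts. Robust dispersion estimates, chosen after seeing the data, called 3, 7 and 3 of the 10, beside 4528, 2648 and 211 of all genes.

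Leaving out 1 library in turn gave 1 to 6, 0 to 9 and 0 to 4 of the 10 genes, 8 to 25, 0 to 26 and 0 to 7 of the other chemokines, and 2602 to 6664, 0 to 4666 and 85 to 877 of all genes. Without *Ifnar1* KO 1 or 3, 4383 and 3778 genes had an unadjusted p under 0.05 against WT. In *Tlr7* KO against WT the log2FC ranged from -0.63 to 0.47 for *Ccl2*, -0.42 to 0.51 for *Ccl7*, -0.88 to 0.13 for *Ccr2* and -0.39 to 0.017 for *Cx3cl1*. The cause of these changes was not tested.

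The replicate numbers were not taken as pairs, since same-numbered libraries did not all deviate together. Their r was -0.135, -0.443 and -0.018 in *Tlr7* KO against WT, and -0.155, -0.471 and -0.355 in *Ifnar1* KO against WT. Between the knockouts it was 0.061, 0.348 and 0.220. There each *Ifnar1* KO library correlated best with its own number, but *Tlr7* KO 1 did not. With 3 to 5 libraries per group, this check cannot exclude a pairing. With the replicate block, 0 of the 10 genes were called in *Tlr7* KO (4 at an unadjusted p under 0.05), 0 in *Ifnar1* KO (7 unadjusted) and 3 between the knockouts, where *Ccl8* was gained (-1.19, adjusted p = 0.0108) and *Ccl7* lost (adjusted p = 0.0933). The block called 1, 0 and 10 other chemokines and 17, 0 and 533 of all genes (3630 unadjusted in *Tlr7* KO and 3787 in *Ifnar1* KO), and *Ccl2* in *Tlr7* KO was at 0.049. These block fits hold only the replicates shared by both groups. Low counts limit *Ccl2*, *Ccl7*, *Ccl12* and *Ccr1*, which had 0 to 10 counts per *Ifnar1* KO library.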
